A study of Bos taurus with 12 samples.

Results

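A set of 7 genes with no family in common, TECTB, MYB, MLLT11, FEM1C, PAXBP1, PNRC1 and NAMPT, were examined in early cattle embryos because their transcripts gave a high signal at the 8-16-cell stage and a low one in the blastocyst. They were chosen on those signals, so the drop between stages is described below and not tested. They are 7 of the 9155 genes that the platform's annotation names, and 17 of the 24016 probe sets name exactly 1 of them. Where a gene has several probe sets, the one of highest mean log2(signal + 16) over the 12 arrays represents it, and the other 10 are given beside it.

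Embryos of Japanese Black cattle were made in vitro, and RNA from pools of them was amplified (WT-Ovation Pico) and read on an Affymetrix bovine genome array. The oocytes came from adult cows, whose ovaries were taken at an abattoir, or from prepubertal heifers aged 9 to 12 months, whose ovaries were removed by a spay device on farms, so donor age and the way of collection cannot be told apart. Each of the 4 groups had 3 arrays: adult 8-16-cell, prepubertal 8-16-cell, adult blastocyst and prepubertal blastocyst. The 8-16-cell embryos came from day 3 (70 to 72 h post insemination), with 50 to a pool, and the expanded, not yet hatched blastocysts from day 7, with 10 to a pool, so stage and pool size cannot be told apart either. All groups shared maturation of the oocytes with serum, fertilization with frozen-thawed semen in Brackett-Oliphant medium, culture in CR1aa, and selection of embryos for normal morphology. The labels used here do not state the age of the cows or whether pools shared animals or a bull. The p-values below therefore speak only for these pools.

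An embryo starts with RNA and protein stored in the oocyte. In cattle, the embryo's own genome takes over around the 8-16-cell stage, and much of the stored RNA is shortened at its tail, decapped and degraded. A transcript that is abundant at that stage may be a maternal remnant or a first product of the embryo's genome, and these arrays cannot tell one from the other. By the blastocyst stage the cells have split into the trophectoderm, the outer epithelium that will form placenta, and the inner cell mass. The 7 genes stand for different processes: an extracellular matrix protein (TECTB), a transcription factor and a transcriptional cofactor (MYB, MLLT11), a ubiquitin ligase receptor (FEM1C), an adaptor to chromatin enzymes (PAXBP1), a nuclear receptor coactivator (PNRC1) and an enzyme of NAD synthesis (NAMPT).

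Each array carries 27 probe sets against genes of the bacterium Bacillus subtilis, which cattle lack, and the brightest of them served as that array's background. It lay between 122 and 424 on 11 of the arrays and at 1664 on prepubertal 8-16-cell replicate 3. That array stood apart: 1255 probe sets exceeded its background, against 4297 to 8500 on the others, and its BioB hybridization control read 325662, against 37438 to 160668. The levels and differences of the 7 genes are given with it, and their donor and stage differences also without it. The stage labels were checked against markers. Summed signal of 9 oocyte and maternal genes was 33090 to 58430 in adult and 54501 to 266335 in prepubertal 8-16-cell pools, and 800 to 1673 and 515 to 3025 in the blastocysts. KPNA7 and BMP15 were the brightest of the 9 at the 8-16-cell stage, and limma called both lower in blastocysts of each donor group, and ZP4 in prepubertal ones. ZP3 in adult (2.30) and OOEP in prepubertal embryos (2.60) had positive differences that did not pass. The other differences of the 9 were negative. Summed signal of 10 trophectoderm genes was 24280 to 27509 and 14969 to 35625 at the 8-16-cell stage, and 82514 to 125011 and 96247 to 131274 in blastocysts, where 9 or 10 of them were above background on each array. Of these 10, limma called 5 higher and 1 lower (ATP1B1, a sodium pump subunit) in adult blastocysts, and 7 higher in prepubertal ones. The 6 inner cell mass genes went the other way in sum, with 107246 to 191531 and 172961 to 447380 at the 8-16-cell stage against 42355 to 49585 and 21191 to 59215 in blastocysts. That sum mainly follows the brightest of them, KLF4, a pluripotency factor. Its mean log2(signal + 16) was 16.91 (adult) and 17.70 (prepubertal) at the 8-16-cell stage, and 15.28 and 14.42 in blastocysts. Singly, POU5F1, SOX2 (above background on no array) and DNMT3B were higher in blastocysts of both donor groups. KLF4 and STAT3 were lower in both, and SPP1 was higher in adult and lower in prepubertal ones. Of the 6, limma called DNMT3B, a DNA methyltransferase, higher in adult blastocysts and KLF4 lower in prepubertal ones. Of 16 cumulus and granulosa markers, which summed to 4813 to 18105 and 3818 to 17579 at the 8-16-cell stage and to 4074 to 4961 and 2316 to 4582 in blastocysts, 1 to 5 were above background on any array. FSHR, INHA, PTX3, AMH, CYP11A1 and LHCGR, markers of those cells, were above it on none, but STAR and HAS2 were above it on 8 of the 12 arrays, COL1A2 on 6 and VCAN on 4, and STAR on all 6 arrays of 8-16-cell embryos. Of 8 blood and 7 sperm markers, 0 to 3 and 0 to 2 were above background. The part of any such cells in the results was not tested.

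Across the 7 genes, the mean of log2(signal + 16) was lower in blastocysts than in 8-16-cell embryos in both donor groups. The difference had a median of -6.83 in adult and -5.39 in prepubertal embryos, while the median over all 9155 genes was 0.13 and -0.16. All 3 adult blastocyst arrays were below all 3 adult 8-16-cell arrays for 7 of 7 genes, as they were for 8.92% of the 9155 genes. The same held for 6 of 7 in prepubertal embryos, against 8.91%, with MYB as the exception, and for 6 of 7 over all 6 arrays of each stage, against 1.94%. For TECTB (493) and FEM1C (755), both counts of 6 use a reading of prepubertal 8-16-cell replicate 3 below that array's background of 1664. These counts restate how the genes were chosen. The arrays are scaled to a common mean, so a lower signal is a lower share of the array's RNA, and in pooled embryos fewer cells of a type and less RNA per cell cannot be told apart.

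"Vanished" described some of the genes and not others. TECTB was below background on all 6 blastocyst arrays. MYB, MLLT11 and FEM1C were below it on all 3 adult blastocyst arrays, but in prepubertal blastocysts MYB was above it on 1 array, MLLT11 on 2 and FEM1C on 3. PAXBP1 was above background on 1 adult and 3 prepubertal blastocyst arrays. PNRC1 and NAMPT were above background on all 12 arrays: their transcripts were lower in blastocysts but still present.

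**Figure D1:**
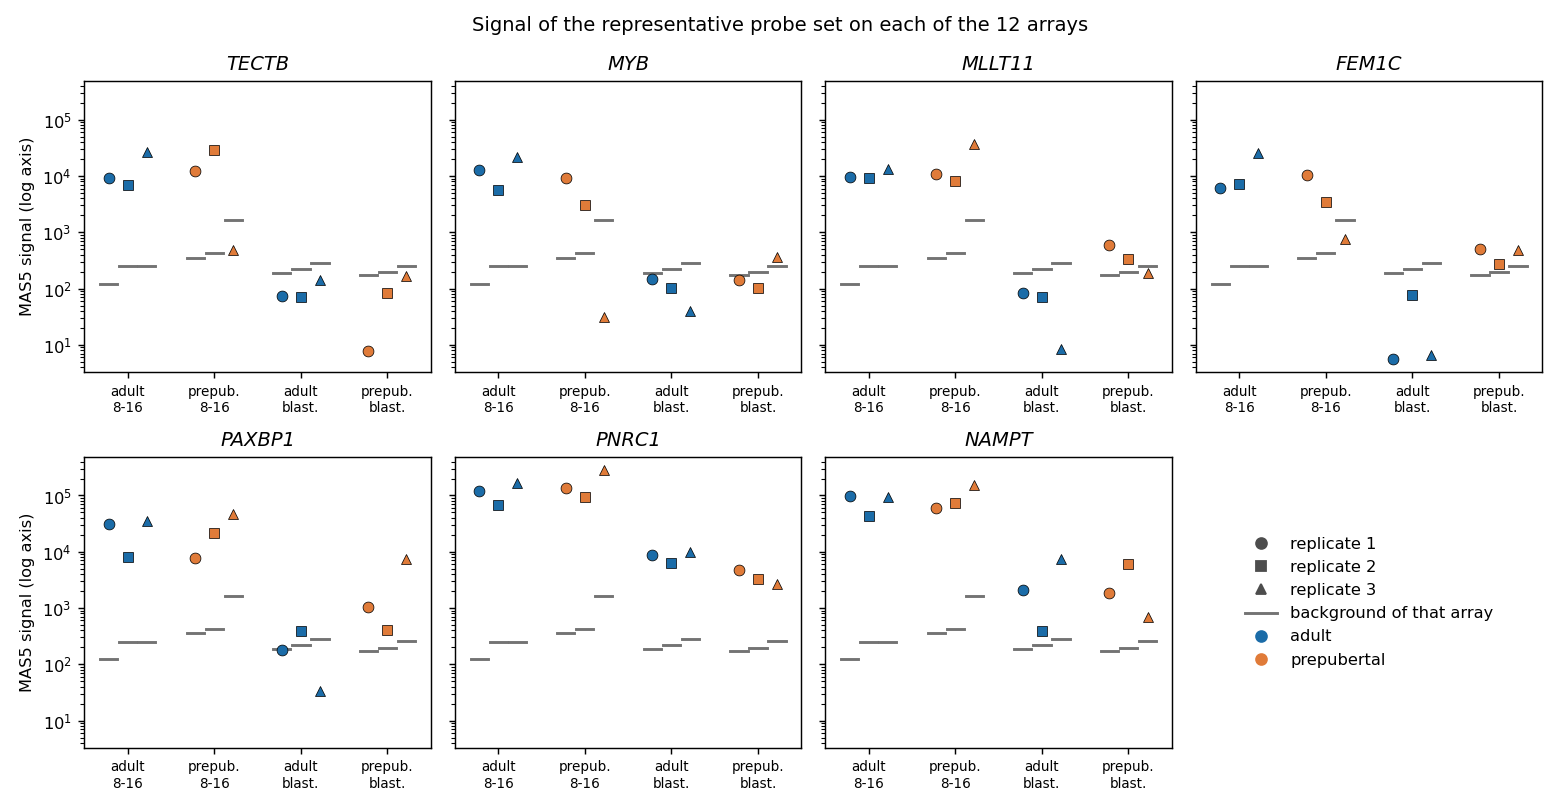
Signal of each gene's representative probe set on each of the 12 arrays (log axis, MAS5 units), adult in blue and prepubertal in orange, with marker shape giving the replicate and a grey dash the background of that array. TECTB lies under the dash on all 6 blastocyst arrays, whereas PNRC1 and NAMPT lie above it on all 12, and TECTB, MYB and FEM1C lie under it on prepubertal 8-16-cell replicate 3.

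TECTB encodes beta-tectorin, a protein with a zona pellucida domain that is best known from the tectorial membrane of the inner ear; the same domain builds the egg coat. It read 9145, 7049 and 26862 in adult 8-16-cell pools and 12511, 28801 and 493 in prepubertal ones. In blastocysts it read 73.8, 69.4 and 140 (adult) and 7.87, 83.5 and 165 (prepubertal). The stages did not overlap in either donor group, and the value of 493 was the one 8-16-cell reading below its array's background. In order of mean log2(signal + 16), adult 8-16-cell embryos came first (13.55 ± 1.02, SD, n = 3), then prepubertal 8-16-cell embryos (12.47 ± 3.07), adult blastocysts (6.73 ± 0.48) and prepubertal blastocysts (6.24 ± 1.50). Neighbours of the same stage did not differ beyond their spread. Because the blastocysts were at background, the fold is a bound: with each blastocyst signal raised to its array's background, TECTB was at least 49.3-fold lower in adult blastocysts. It was at least 25.8-fold lower in prepubertal blastocysts, and at least 86.2-fold lower without replicate 3.

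MYB encodes a DNA-binding transcription factor known for the upkeep of blood progenitors. Its signals were 12705, 5718 and 21477 in adult 8-16-cell pools, and 9111, 3077 and 31.5 in prepubertal ones. Adult blastocysts read 146, 103 and 39.6, and prepubertal blastocysts 145, 102 and 366. The adult stages were far apart, at least 47.6-fold with the blastocysts raised to background. The prepubertal stages overlapped, through the single value of 31.5 on replicate 3, which was lower than any prepubertal blastocyst. The stage difference in prepubertal embryos was accordingly -2.51 (SE 1.48), and -4.78 without that array, against -6.83 (SE 1.48) in adult embryos. The order of mean log2(signal + 16) was adult 8-16-cell (13.50 ± 0.96), prepubertal 8-16-cell (10.11 ± 4.01), prepubertal blastocyst (7.60 ± 0.88) and adult blastocyst (6.68 ± 0.79), and the SD of 4.01 made the prepubertal groups indistinguishable.

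MLLT11 encodes a small cofactor of transcription, first found as a fusion partner of the histone methyltransferase KMT2A in leukaemia. Its 8-16-cell signals were 9705, 9265 and 13287 in adult pools and 10747, 8161 and 37166 in prepubertal ones. In adult blastocysts they were 81.8, 69.8 and 8.47, and in prepubertal blastocysts 604, 331 and 192. Adult 8-16-cell pools were close to one another, and all 3 prepubertal blastocyst pools were brighter than all 3 adult ones. The gene was at least 43.5-fold lower in adult blastocysts, and prepubertal blastocysts kept 2.39% of the 8-16-cell level, a difference of -5.39 (SE 1.38). The order was prepubertal 8-16-cell (13.86 ± 1.16), adult 8-16-cell (13.38 ± 0.28), prepubertal blastocyst (8.47 ± 0.79) and adult blastocyst (5.88 ± 1.10), of which the first pair did not differ beyond its spread.

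FEM1C encodes a substrate receptor of the CUL2 ubiquitin ligase that recognizes signals at the C-terminus of proteins. Its signals were 6214, 7320 and 25643 in adult 8-16-cell pools and 10543, 3491 and 755 in prepubertal ones, the last of these below that array's background. Adult blastocysts read 5.65, 77.9 and 6.59, and prepubertal blastocysts 503, 276 and 490. The gap between stages was thus wide in adult embryos and narrow in prepubertal ones, where 755 and 503 were the nearest values. FEM1C was at least 43.2-fold lower in adult blastocysts. In prepubertal embryos the difference was -2.85 (SE 1.44), and -3.84 without replicate 3. Mean log2(signal + 16) ran from adult 8-16-cell (13.36 ± 1.12) through prepubertal 8-16-cell (11.58 ± 1.90) and prepubertal blastocyst (8.73 ± 0.47) to adult blastocyst (5.16 ± 1.20); the 8-16-cell groups did not differ beyond their spread.

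PAXBP1 encodes an adaptor that links the muscle-lineage factors PAX3 and PAX7 to enzymes that methylate histone H3 at lysine 4. It read 31116, 8177 and 34910 in adult and 7887, 21772 and 46274 in prepubertal 8-16-cell pools. Adult blastocysts read 180, 394 and 34.0, and prepubertal blastocysts 1026, 402 and 7453. The reading of 7453 came close to the lowest 8-16-cell values, yet the stages did not overlap. Blastocysts kept 0.767% of the 8-16-cell level in adult embryos, a difference of -7.03 (SE 1.24), and 7.42% in prepubertal ones, a difference of -3.75. In adult blastocysts 1 of the 3 readings, 394, exceeded its array's background, and with signals raised to background the adult difference was -6.15. In prepubertal embryos the difference was -4.92 without blastocyst replicate 3, which read 7453, and -2.84 without blastocyst replicate 2. The 8-16-cell groups were level (14.34 ± 1.16 adult, 14.29 ± 1.28 prepubertal), followed by prepubertal blastocysts (10.53 ± 2.12) and adult blastocysts (7.31 ± 1.54).

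PNRC1 encodes a proline-rich coactivator of nuclear receptors that also binds the mRNA decapping machinery. Its signals were 121182, 68034 and 165367 in adult and 133571, 94966 and 283948 in prepubertal 8-16-cell pools. They were 8839, 6427 and 9726 in adult blastocysts and 4727, 3212 and 2622 in prepubertal ones. Every array was well above background, the stages did not overlap, and all prepubertal blastocyst pools were dimmer than all adult ones. Adult blastocysts kept 7.41% of the 8-16-cell level, a log2 difference of -3.75 (SE 0.74), and prepubertal blastocysts kept 2.24%, a difference of -5.48. Among the 7 genes this was the smallest difference in adult embryos. The order was prepubertal 8-16-cell (17.23 ± 0.81), adult 8-16-cell (16.76 ± 0.65), adult blastocyst (13.01 ± 0.31) and prepubertal blastocyst (11.74 ± 0.43), the first pair within its spread.

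NAMPT encodes the rate-limiting enzyme of the salvage route that makes NAD from nicotinamide. Its signals were 96080, 42923 and 93986 in adult and 59404, 74255 and 154776 in prepubertal 8-16-cell pools. They were 2074, 388 and 7321 in adult blastocysts and 1873, 6131 and 686 in prepubertal ones. The stages were clearly separate and the donor groups overlapped at each stage. Blastocysts kept 2.52% (adult) and 2.29% (prepubertal) of the 8-16-cell level, differences of -5.31 and -5.45 (SE 0.93). The pools of 1 group agreed less at the blastocyst stage (10.84 ± 2.10 adult, 10.98 ± 1.57 prepubertal) than at the 8-16-cell stage (16.15 ± 0.66 and 16.43 ± 0.72).

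No numeric threshold separated these genes from the rest. When the 9155 genes were ordered by the smaller of their differences in the 2 donor groups, TECTB stood at position 6, MLLT11 at 13, NAMPT at 15, PNRC1 at 67, PAXBP1 at 68, FEM1C at 164 and MYB at 238. Genes beside them in that order that are not among the 7 were ZNF668 at 5, SVIL at 7, CNOT6 at 12 and TOB1 at 14. These positions depend on prepubertal 8-16-cell replicate 3. Without that array, an alternative chosen after the data were seen, TECTB stood at 5, NAMPT at 22, MYB at 27, MLLT11 at 31, FEM1C at 81, PNRC1 at 87 and PAXBP1 at 162. The smallest prepubertal difference of the 7 was then that of PAXBP1 (-3.15), in place of MYB.

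The other probe sets of the 6 genes that had more than 1 did not all tell the same story. Those of FEM1C were bright, and both were lower in blastocysts: the brighter by -6.26 in adult and -5.78 in prepubertal embryos, the dimmer by -4.23 and -5.33. In prepubertal blastocysts the brighter read 6.65, 448 and 23.3 and the dimmer 10.0, 5.74 and 167, where the representative read 503, 276 and 490. Only 1 of those 6 readings exceeded its array's background, so the FEM1C signal that remained in prepubertal blastocysts was seen with 1 of 3 probe sets. For PNRC1, the next brightest probe set differed by -6.32 in adult and -8.32 in prepubertal embryos, and the one after it by -4.50 and -1.20. The second probe set of MYB was dimmer and gave -2.66 and -2.93 (SE 1.37). The remaining probe sets differed little beside their standard errors of 1.19 to 1.51. They were the second of MLLT11 (-1.73 and -1.20) and of NAMPT (1.03 and 0.49), both of the other PAXBP1 probe sets (-0.85 and -1.16 for the brighter, -1.27 and 1.25 for the dimmer) and the dimmest of PNRC1 (-0.45 and 0.30). Of the 17 probe sets, 13 were above background on at least 3 arrays.

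**Figure D2:**
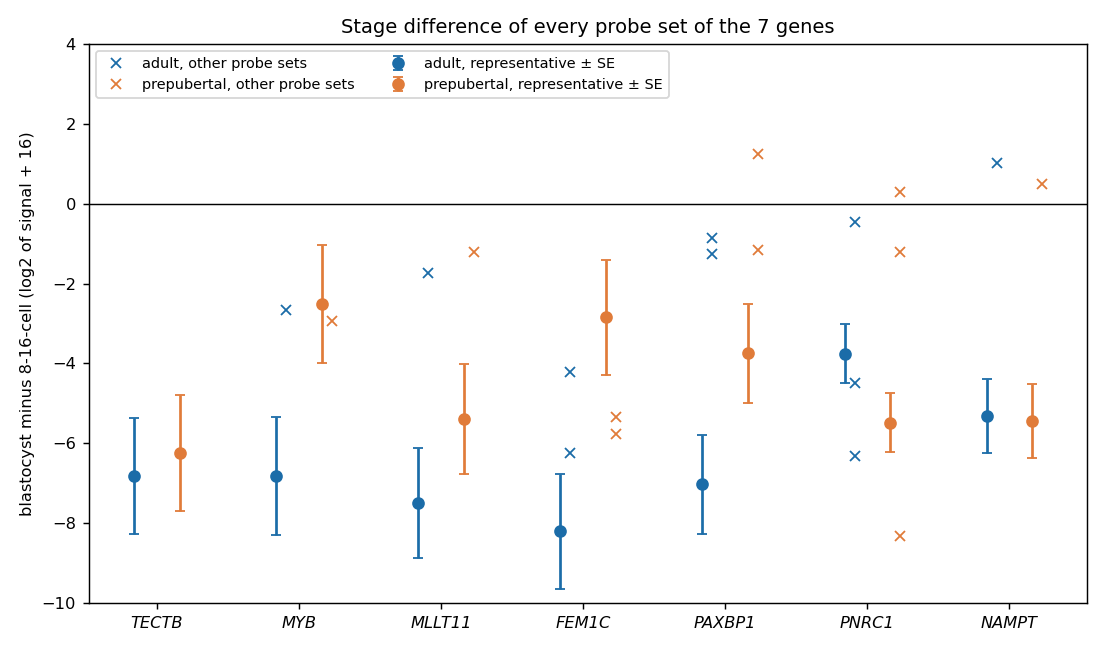
Blastocyst minus 8-16-cell difference of log2(signal + 16) for all 17 probe sets, adult in blue and prepubertal in orange; dots with bars are representatives ± SE and crosses the other probe sets. All representatives lie below 0, from -8.20 for FEM1C in adult to -2.51 for MYB in prepubertal embryos, and the crosses above 0 belong to NAMPT, PAXBP1 and PNRC1.

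Whether oocytes of heifers and of cows gave embryos with different levels of these transcripts was tested at each stage with limma, adjusting by Benjamini and Hochberg over 24016 probe sets. Donor origin was not the basis of the choice, but the 8-16-cell and the blastocyst arrays that these tests use both helped to choose the genes. None of the 7 passed at the 8-16-cell stage (adjusted p 0.495 to 0.993), where 0.0218% of genes did. No gene's donor groups were separate there, against 8.74% of genes with prepubertal higher and 3.53% with adult higher. An unadjusted p under 0.05 was found for 1 of 7, MYB, as it was for 8.75% of genes. Its limma p was 0.0230 (adjusted 0.495): it was lower in prepubertal pools by -3.40, with a 95% interval of -6.32 to -0.47, and by -1.13 without replicate 3. That interval rests on an error that limma draws mainly from other probe sets, while the SD of MYB in the prepubertal pools was 4.01. The exact two-sided permutation test over arrays gave p = 0.2 for MYB. The other 6 intervals spanned 0. They ran from -3.95 to 1.79 for TECTB (-1.08), from -4.63 to 1.06 for FEM1C (-1.79) and from -2.23 to 3.20 for MLLT11 (0.48). The narrowest, from -0.99 to 1.93 for PNRC1 (0.47) and from -1.56 to 2.10 for NAMPT (0.27), still allow differences of more than 1 on the log2 scale. For PAXBP1 (-0.05) the interval was -2.50 to 2.39. Over all genes the median in this comparison was 0.46, and -0.04 after quantile normalization, and 5 of the 7 genes lay below 0.46. Under quantile normalization PNRC1 (-0.27) and NAMPT (-0.40) changed sign, so these have no settled direction.

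Prepubertal 8-16-cell replicate 3 split the genes. For TECTB, MYB and FEM1C it held the lowest of the 3 signals, by -5.22, -6.81 and -2.98 on the log2 scale against the mean of the other pair, and all 3 signals were below its raised background. For MLLT11, PAXBP1, PNRC1 and NAMPT it held the highest signal, by 1.99, 1.82, 1.33 and 1.22. Without it, the donor difference of TECTB went from -1.08 to 0.66, that of MLLT11 to -0.18, of FEM1C to -0.79, of PAXBP1 to -0.66, of PNRC1 to 0.02 and of NAMPT to -0.13. The prepubertal stage difference became -7.98 for TECTB, -4.72 for MLLT11, -3.15 for PAXBP1, and -5.04 for both PNRC1 and NAMPT. The array's own state moved with these values, and its part in them was not tested.

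In blastocysts, 3 genes had all prepubertal arrays above all adult ones (MLLT11, FEM1C and PAXBP1; 6.39% of genes did) and 1 had them all below (PNRC1; 3.84% did). None passed the test: limma's adjusted p was 0.9996 for each of the 7, and 0% of genes passed. PAXBP1 was higher in prepubertal blastocysts by 3.22 (95% interval 0.77 to 5.67, unadjusted limma p 0.0101) and FEM1C by 3.57 (0.72 to 6.41, unadjusted limma p 0.0142). These were the 2 of 7 with an unadjusted p under 0.05, as 3.9% of genes had. The difference of PAXBP1 was 2.05 without prepubertal blastocyst replicate 3 and 2.39 without adult blastocyst replicate 3, and was highest, at 4.13, without prepubertal blastocyst replicate 2. Since FEM1C was at background in adult blastocysts, its fold is at least 1.74, and for MLLT11, which differed by 2.59 (-0.13 to 5.30, and 1.95 without adult blastocyst replicate 3), it is at least 1.45. With signals raised to background the differences were 0.80 for FEM1C, 0.67 for MLLT11 and 2.35 for PAXBP1. PNRC1 was lower in prepubertal blastocysts by -1.26 (-2.72 to 0.20). The exact two-sided permutation test gave p = 0.1 for each of these 4 genes, the smallest that 3 arrays against 3 can give. NAMPT (0.13, -1.70 to 1.96), MYB (0.92, -2.01 to 3.84) and TECTB (-0.49, -3.36 to 2.38) overlapped between donor groups. Prepubertal blastocyst arrays also had more probe sets above background, 8129 to 8500 against 6093 to 7009, and the part of this in the higher readings was not tested.

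Other probe sets bear on these donor values. Those of FEM1C gave -1.10 and -0.70 in blastocysts, the opposite sign to the representative, and that of MLLT11 -0.11. For PAXBP1, the dimmest gave 2.37 with separate donor groups (61.4, 181 and 273 as the ordered prepubertal signals against 12.4, 15.1 and 20.0), though only 2 of these 6 readings exceeded background, and the middle one gave -0.11. For PNRC1, the next brightest gave -2.84, the same direction as the representative, and the one after it 1.62.

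**Figure D3:**
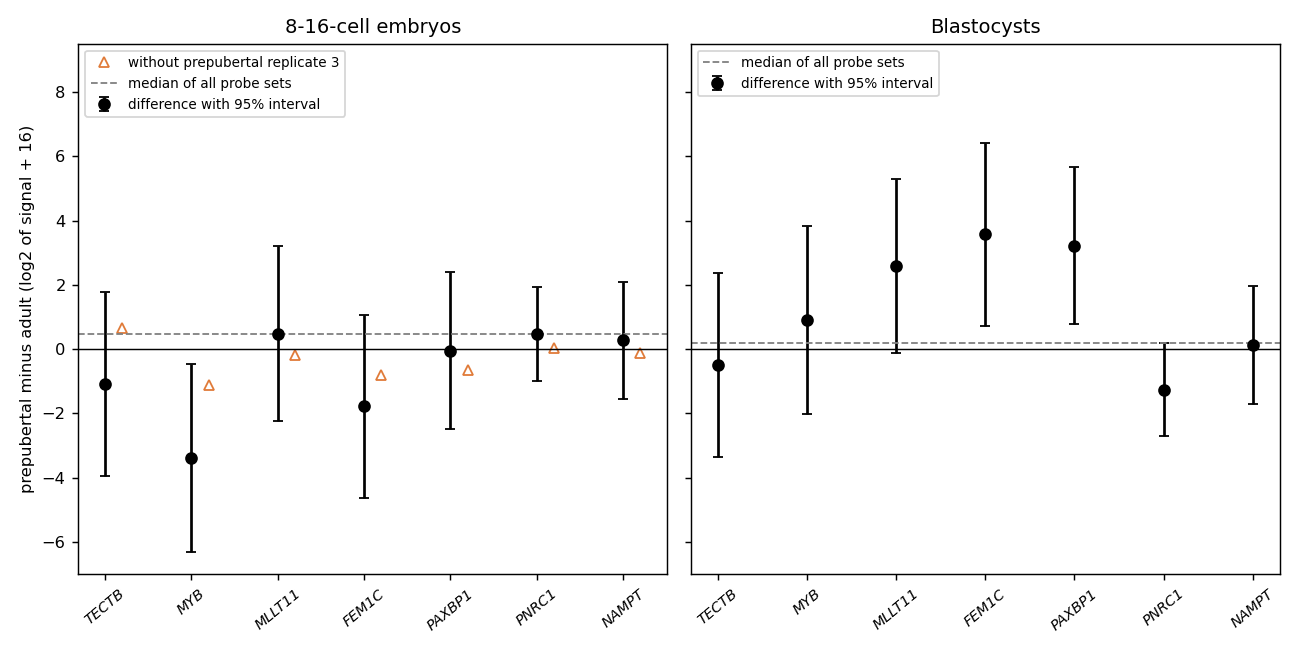
Prepubertal minus adult difference of log2(signal + 16) for the 7 representatives at each stage, with 95% intervals. Open triangles leave out prepubertal 8-16-cell replicate 3, and the dashed line, labelled as all probe sets, is the median of the representatives of all genes. With limma's error, the interval of MYB at the 8-16-cell stage and those of FEM1C and PAXBP1 in blastocysts exclude 0 before adjustment, and none passed after it.

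The donor difference itself was compared between stages as an interaction in the same limma fit. None of the 7 genes passed (adjusted p 0.873 to 0.997), and 0% of all genes did. An unadjusted p under 0.05 was found for 2 of 7, against 5.69% of genes. FEM1C had a value of 5.36 (95% interval 1.33 to 9.38, unadjusted limma p 0.00933), which became 4.36 without prepubertal 8-16-cell replicate 3. Its adult blastocyst readings were below background, however: with signals raised to background FEM1C gave 2.21, and its other probe sets gave -1.11 and 0.48. MYB had 4.32 (0.18 to 8.45, unadjusted limma p 0.0409), 2.05 without that array and 1.70 with signals raised to background. PNRC1 had the lowest, -1.73 (-3.79 to 0.34). The other 4 intervals also spanned 0, with PAXBP1 at 3.27 (2.40 with signals raised to background, 2.11 without prepubertal blastocyst replicate 3), MLLT11 at 2.11, TECTB at 0.59 and NAMPT at -0.14. Over all genes the median of this value was -0.22, and -1.57 with signals raised to background. The values given with signals raised to background therefore stand beside a lower median than the others.

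The stage difference of genes listed with the 7, as partners, relatives or parts of a pathway, was tested with limma in the same fit. The counts leave out the 7 themselves. In adult embryos 1.84% of all genes were called higher and 1.33% lower in blastocysts, and in prepubertal embryos 2.57% and 1.39%. The list of mRNA deadenylation and decapping, the step that clears stored RNA and that PNRC1 is linked to, had 34 measured genes of 54. In adult blastocysts 2 rose and 2 fell, and in prepubertal blastocysts 2 rose and 3 fell. The list's median, less that of all genes, was -0.72 and 0.23. CNOT6, a deadenylase of the CCR4-NOT complex, fell by 5.59 (SE 1.41) in adult and 5.92 in prepubertal embryos. TOB1, which recruits that complex to mRNA, fell by 5.36 (SE 1.44) and 5.62, a size like that of the 7 genes. CNOT7, another deadenylase, was lower by -2.96 (SE 0.83) in prepubertal embryos, where it passed, and by -0.95 in adult ones, where it did not.

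The genes of that list that rose were of other kinds. LSM5 (4.60, SE 1.36) and LSM7 (5.98, at least 7.80-fold) belong to the ring that binds shortened tails before decapping, and both passed in adult embryos. In prepubertal embryos LSM5 (4.17, adjusted p 0.0759) and LSM7 (2.77, adjusted p 0.395) did not. Also of that ring, LSM1 (-0.66 adult, 1.40 prepubertal), LSM2 (0.85, 0.26), LSM4 (-0.83, 0.13) and LSM6 (3.09, 3.77) passed in neither donor group. LSM3, of the same ring, rose in prepubertal embryos by 3.63 (SE 1.06). In adult ones it differed by 0.64 and did not pass (limma's adjusted p 0.933). PABPC1, the cytoplasmic poly(A)-binding protein, rose in prepubertal embryos by 5.44 (SE 1.23). In adult ones it differed by 0.82 and did not pass (0.921). At the 8-16-cell stage LSM3 was at 13.07 ± 1.02 (adult) and 10.53 ± 3.52 (prepubertal). PABPC1 was at 12.02 ± 1.46 and 8.05 ± 1.75 there. None of the 34 genes passed in a donor comparison or in the difference between stages, and the stage effects of the donor groups were not shown to differ.

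In the other lists few genes were called. ELL2, an RNA polymerase II elongation factor, was the 1 called gene of 15 measured partners of KMT2A fusions and elongation factors: it fell by 5.01 in adult and 4.86 in prepubertal embryos (SE 0.89). ELOC, which joins FEM1C to CUL2, was the 1 of 12 in the ligase list: it fell by 3.67 and 2.77 (SE 0.71). FEM1A and FEM1B were not measured here. ZP4, a protein of the egg coat, was the 1 of 9 zona pellucida domain genes called. It fell at least 9.79-fold in prepubertal embryos and was at least 4.51-fold lower in adult ones, which did not pass (adjusted p 0.213). ZP2, also of the egg coat, was lower by -2.53 and -3.90 without passing, and ZP3 was above background on 1 of 12 arrays.

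NCOA4, a nuclear receptor coactivator that also carries ferritin to lysosomes, rose by 5.09 (SE 1.40) in prepubertal embryos and was the 1 of 15 called in the list of coactivators and receptors. PNRC2, the closest relative of PNRC1 and a decapping activator, was higher in blastocysts by 3.50 (adjusted p 0.133) and 3.26 (adjusted p 0.168), the opposite sign to PNRC1, and did not pass. Of 19 NAD genes besides NAMPT none was called; NMNAT1, which completes NAD synthesis in the nucleus, was lower by -3.15 (adjusted p 0.165) and -3.04 (adjusted p 0.173). None of the 14 genes of the MYB list passed, and the MYB relatives MYBL1 and MYBL2 were above background on 2 and 1 of 12 arrays. None of the 11 genes of the PAXBP1 list passed. In none of these lists did a gene pass in a donor comparison. Of the 16 cumulus and granulosa markers, limma called 1: STAR, a cholesterol carrier of steroid-making cells, fell at least 13.4-fold in prepubertal embryos. That call was lost without prepubertal 8-16-cell replicate 3 (limma's adjusted p 0.130), without prepubertal blastocyst replicate 2 (0.169) or 3 (0.0661), and with array weights (0.0632). In adult embryos STAR was lower by -1.71 and did not pass (limma's adjusted p 0.791). HAS2 (3.06 and 2.90) and COL1A2 (1.08 and 3.40) had positive differences that did not pass.

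The calls of ELL2 in both donor groups, of ELOC in adult and of ZP4 in prepubertal embryos held with any single array left out, and those of ELL2 and ZP4 under the other alternatives too. CNOT6 was lost in adult embryos without adult 8-16-cell replicate 3 (limma's adjusted p 0.0618) or adult blastocyst replicate 3 (0.189), and in prepubertal embryos without prepubertal blastocyst replicate 3 (0.137). TOB1 was lost in adult embryos without adult 8-16-cell replicate 1 (0.062) or 3 (0.132) or adult blastocyst replicate 3 (0.297), and in prepubertal embryos without prepubertal 8-16-cell replicate 1 (0.0658) or blastocyst replicate 3 (0.158). PABPC1 was lost without prepubertal blastocyst replicate 3 (0.0674), and LSM7 without adult blastocyst replicate 1 (0.0511) or 3 (0.0657). Without prepubertal 8-16-cell replicate 3, ELOC (0.0901) and LSM3 (0.364) were lost in prepubertal embryos. Leaving out either of prepubertal blastocyst replicates 1 and 2 also ended the call of ELOC (0.104 and 0.0935), as leaving out any prepubertal blastocyst array did for LSM3 (up to 0.152), CNOT7 (up to 0.137) and NCOA4 (up to 0.133). CNOT7 was lost as well without prepubertal 8-16-cell replicate 2 (0.0509), and NCOA4 without replicate 1 (0.169). LSM5 was lost without adult 8-16-cell replicate 2 or 3, any adult blastocyst array, or prepubertal blastocyst replicate 1 or 3 (0.0586 to 0.572). Processing ended some calls as well. Without the intensity trend, limma's adjusted p was 0.100 for ELOC in adult and 0.264 in prepubertal embryos, 0.180 for CNOT7, 0.165 for LSM3 and 0.0797 for LSM5. With signals raised to background it was 0.112 for LSM5 and 0.172 for LSM7, and with quantile normalization 0.0882 for ELOC in prepubertal embryos and 0.0705 for CNOT7. CNOT7 (0.0877) and LSM3 (0.0819) were also lost in a fit of only the groups compared. LSM3 was lost with array weights (0.149), with a pseudocount of 64 (0.0710) and with dim probe sets left out (0.0612), and LSM5 under the latter pair too (0.0959 and 0.0573).

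**Figure D4:**
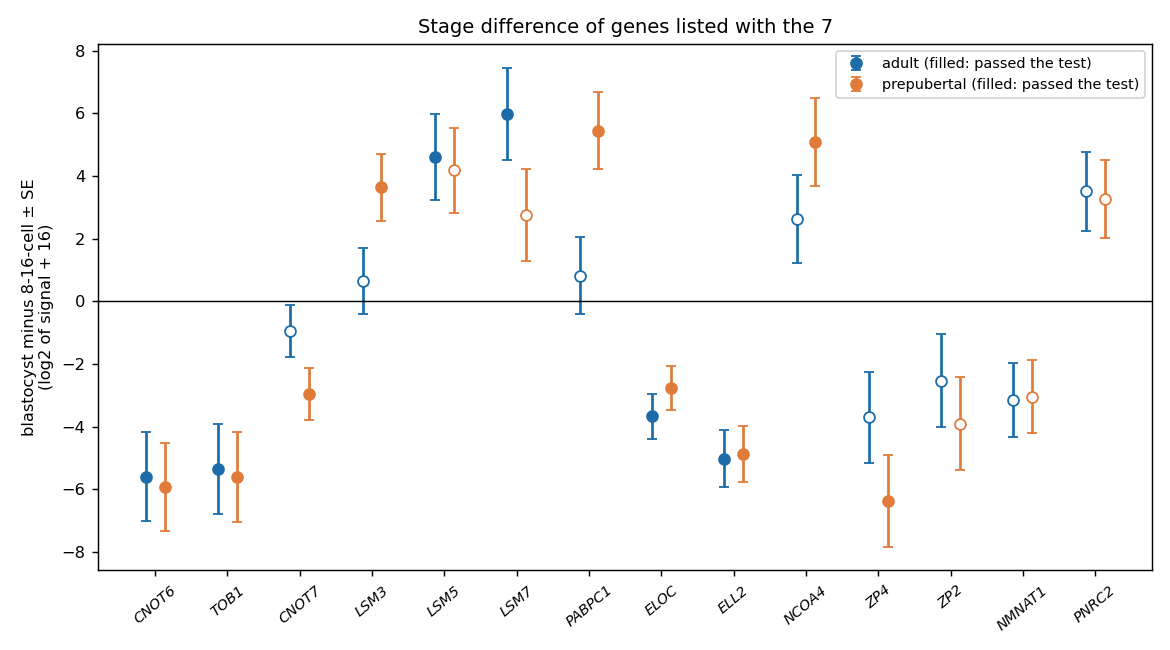
Blastocyst minus 8-16-cell difference of log2(signal + 16) ± SE for 14 genes from the lists, adult in blue and prepubertal in orange, filled where the limma test passed. CNOT6, TOB1, ELOC and ELL2 are filled and below 0 in both donor groups, while LSM3, PABPC1 and NCOA4 are filled above 0 in prepubertal embryos and LSM5 and LSM7 in adult ones.

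Profiles over the 12 arrays were set side by side as the root mean square difference of log2 signals, each raised to its array's background and centred on its own mean, over 5133 genes. This describes likeness and has no test, and all profiles share the same arrays. Genes below background on the same array are set to the same value there, so part of their likeness follows from that floor. For MYB and FEM1C this was so on all 3 adult blastocyst arrays and on prepubertal 8-16-cell replicate 3. Within the 7, MYB and FEM1C were the most alike pair (0.55), followed by MLLT11 and PNRC1 (0.86) and TECTB and MYB (0.93). PAXBP1 and NAMPT differed most (2.02). Without prepubertal 8-16-cell replicate 3, again chosen after the data were seen, MYB and FEM1C (0.57) and PAXBP1 and NAMPT (2.11) kept these places, and MLLT11 and FEM1C (0.60) came second. The genes most like the mean of the 7 were SLC1A5, a glutamine transporter (0.62), LRIF1 (0.64), PELI1, a ubiquitin ligase of innate immune signalling (0.65), and TOB1 (0.70). KCTD9 (0.75), FBXO33 (0.77), USP33 (0.80) and PRKACB, a catalytic subunit of protein kinase A (0.81), came next. SLC1A5 ran from 17.29 ± 0.77 and 17.68 ± 0.20 at the 8-16-cell stage, adult and prepubertal, to 12.54 ± 0.73 and 12.97 ± 0.38 in blastocysts. Without that array, FBXO33 (0.58), LRIF1 (0.61), PELI1 (0.61), SLC1A5 (0.64) and TOB1 (0.69) were nearest, followed by RALB (0.74), JPT2 (0.77) and TBPL1 (0.78).

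For single genes, the nearest to TECTB was BMP15, a growth factor made by oocytes (0.73), followed by TOB1 (1.08). BMP15 was, like TECTB, below background on all 6 blastocyst arrays, so both were set to the floor there. JPT2 was nearest to both MYB (0.73) and FEM1C (0.70), followed by LRIF1 (0.78) and by RALB, a small GTPase (0.73). FBXO33, a ubiquitin ligase receptor, was nearest to both MLLT11 (0.74) and NAMPT (0.98), followed by PELI1 (0.80) and KCTD9 (1.05). GADD45A, a stress-response gene (0.56), and TACC3, a spindle protein (0.73), were nearest to PNRC1. AURKA, a mitotic kinase (0.96), and DIMT1, an rRNA methyltransferase (1.04), were nearest to PAXBP1. The nearest gene stayed the same without prepubertal 8-16-cell replicate 3 for TECTB (0.66), PAXBP1 (0.999) and NAMPT (1.01). For the others it became FBXO33 for MYB (0.55), TBPL1 for MLLT11 (0.70), PELI1 for FEM1C (0.60) and LRIF1 for PNRC1 (0.51). AURKA was at 10.97 ± 1.06 in adult and 13.65 ± 1.02 in prepubertal blastocysts.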

How the data were processed

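The deposited values are signal intensities per probe set on a linear scale, which the authors made with MAS5, per the submitters' processing notes, with no version or settings stated there. The mean of each array, trimmed by 2% at each end, was 500.19 to 500.31, as the values show, and no detection call was used. Of 24128 probe sets, 112 were controls. Of the 24016 tested, 13292 name 1 gene in the platform's annotation, 86 several and 10638 none, and looking them up by gene identifier changed 0 symbols.

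Signals were analysed as log2(signal + 16) with limma 3.58.1 in R 4.3.3: a mean for each of the 4 groups over all 12 arrays, eBayes with an intensity trend, two-sided, Benjamini-Hochberg adjustment over all 24016 probe sets, called at 0.05. With 195.66 prior and 8 residual degrees of freedom, limma draws the error of each probe set mainly from others as bright. The number of arrays, 3 per group, limits the precision. The pseudocount makes differences of dim signals too small. A fold written as "at least" compares the brighter group with a group at background on its 3 arrays, each signal raised to background. No label says whether the Bacillus sequences were spiked in, which would make this background too high. Single values were compared by exact permutation over arrays. The fitting code was tested on simulated data.

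The members and gene lists were chosen with earlier results of these data known. Named genes were the 7 with all their probe sets, the called genes of each list (up to 4 of smallest p per comparison), their closest relatives, and the genes of most like profile. LSM3 and STAR were named after their values were seen. Sequences and coordinates were not used here. The alternatives were other pseudocounts, quantile normalization, a filter on dim probe sets, a floor at background, no intensity trend, array weights, a replicate block, a fit of only the groups compared, the other probe sets, and leaving out each array. The order and likeness of profiles without 1 array were added after the data were seen.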

Additional observations from a re-analysis of the deposited data

How the results depend on the processing

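Under every alternative run, no donor value of TECTB, MYB, MLLT11, FEM1C, PAXBP1, PNRC1 or NAMPT passed the threshold (0 of 464, lowest adjusted p 0.109), and all 294 stage differences of the representatives stayed below 0, as did 16 of 20 from other probe sets. The exceptions were NAMPT (1.03 adult, 0.49 prepubertal), PAXBP1 (1.25 prepubertal) and PNRC1 (0.30 prepubertal), from the dimmer probe sets. Raising signals to background moved the median stage difference of the members in adult embryos from -6.83 to -5.44, which its construction requires where blastocysts are at background. That floor was 1664 on prepubertal 8-16-cell replicate 3, where 1255 probe sets exceeded it. With it, limma called 14616 of 24016 probe sets in the 8-16-cell donor comparison (main fit 5) and 13469 in the prepubertal stage comparison (main fit 563). Most values of that array are then the floor itself, so this alternative is a weak check wherever that array is used.

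Of the donor values, 40 changed sign, none past the threshold, and the causes were not tested. At the 8-16-cell stage, other probe sets gave 0.76 for MYB, -0.64 for MLLT11, 0.0070 for FEM1C, 0.20 for PAXBP1 and -0.84, -1.68 and -0.51 for PNRC1, and quantile normalization gave -0.27 for PNRC1 and -0.40 for NAMPT. In blastocysts, other probe sets gave -0.11 for MLLT11, -1.10 and -0.70 for FEM1C, -0.11 for PAXBP1, 1.62 and 0.24 for PNRC1 and -0.18 for NAMPT. For the difference between stages, other probe sets gave -0.28 for MYB, -1.11 for FEM1C, -0.31 for PAXBP1 and 3.29 and 0.75 for PNRC1. Array weights gave -0.36 for TECTB and 0.28 for NAMPT, and quantile normalization 0.53 for NAMPT. Leaving out single arrays gave, at the 8-16-cell stage, -2.25 to 0.66 for TECTB, -0.18 to 0.91 for MLLT11, -0.72 to 0.62 for PAXBP1 and -0.13 to 0.56 for NAMPT. It gave -1.12 to 0.34 for TECTB and -0.96 to 1.13 for NAMPT in blastocysts, and -1.15 to 1.76 and -1.23 to 0.86 for the difference between stages.

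Replicate numbers did not pair the arrays: same-numbered arrays of the groups compared had correlations of deviations between -0.022 and 0.040 over 9807 probe sets. The fit with the replicate number as a block called 0 of the 7 genes in each donor comparison, as did the fit without it. Signal near background limits MYB, MLLT11 and FEM1C in adult and TECTB in all blastocysts to bounds, and PAXBP1 exceeded background on 1 of 3 adult blastocyst arrays. Deposited values of 3 arrays a group gave standard errors of 0.74 to 1.48 for these genes, so differences of the size of 1 on the log2 scale could not be called. Larger donor differences were not called either. Examples were FEM1C (3.57) and PAXBP1 (3.22) in blastocysts (limma's adjusted p 0.9996 for each) and MYB (-3.40) at the 8-16-cell stage (0.495).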
